A study of Homo sapiens with 4 samples.

Results

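The circles described here come from the ZMYM genes, ZMYM1 to ZMYM6, which encode proteins with MYM-type zinc fingers. They were chosen by gene name: a back-spliced position belonged to the family when a member was among the genes named for it and its type was not antisense. This gave 430 of the 211599 positions in the table, of which 405 had a count in at least 1 library. Gene name and circle type were called from these same libraries, so membership is no finding. The cells were MDA-MB-468, an established line of human breast cancer. Every group used a radioresistant derivative, made by giving a total of 50 Gy in fractions. There were 2 libraries with a control hairpin (shCtrl, genotype WT) and 2 with a stable knockdown of HNRNPL, a splicing regulator that binds RNA, made with a hairpin named shHNRNPL-1. The comparison asks which circular RNAs depend on HNRNPL. It rests on 1 named hairpin in 1 derived line, with no parental cells that were not irradiated.

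MYM-type zinc fingers are short motifs that coordinate zinc and mediate contacts between proteins. ZMYM2 and ZMYM3 are known as parts of the LSD1-CoREST-HDAC corepressor, a complex that removes active histone marks, and ZMYM2 also binds SUMO, a small protein tag, and is known as a fusion partner in blood cancers. A circular RNA forms when the splicing machinery joins the end of a downstream exon (the donor) back to the start of an upstream exon (the acceptor), so that each circle is described by its 2 edges. Circles carry no free ends and are long-lived in cells.

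The libraries held 472428 and 556578 counts in the controls and 282737 and 390547 in the knockdown. Levels are given as counts per 100000 counts of the library, and 3 counts, the limit that a count of 0 allows, came to between 0.539 and 1.06 on that scale. Control replicate 1 stood apart from the other libraries: exon circles made up 70.9% of its counts, against 84.9% to 85.7% in the other 3. Within the family the exon share was 96.9% to 98.2% in all 4 libraries. The part of this difference between libraries in the results below was not tested. For some of the results whose call changed with control replicate 1 left out, the values without it are given, in places as fold changes only. Reads of HNRNPL itself were not analysed here, so the knockdown rests on the labels. Summed over the 4 libraries, the line's CD44 had 607 counts, EGFR 200 and EPCAM 108, whereas ESR1 had 22, ERBB2 6, KRT5 and SMAD4 2 each, and PGR, RB1, PTPRC, PECAM1, COL1A1 and PDGFRB 0. In such bulk libraries, fewer cells with a circle and fewer copies per cell cannot be told apart.

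The family held 23133 counts, or 1.36% of all counts, and 85.6% of these were ZMYM4 circles. It made up 1053 and 1638 counts per 100000 in the controls and 1284 and 1386 in the knockdown. The knockdown libraries lay between the controls, and the group means of 1345 ± 413 and 1335 ± 72.2 (SD, n = 2 each) differed by less than the spread between replicates. Circles were thinly spread: 93 positions with at least 10 counts over the 4 libraries held 22120 of the counts, and 312 had between 1 and 9. Of the 405, 81 were seen in all 4 libraries and 157 in 1 library.

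Compared per length of the RefSeq gene, ZMYM4 gave 7.85 ± 2.26 counts per 100000 per kb in the controls and 6.93 ± 0.438 in the knockdown (SD, n = 2 each), more than any other member. In the controls ZMYM1 followed with 0.537 ± 0.101, ZMYM6 with 0.496 ± 0.0537, ZMYM5 with 0.447 ± 0.297 and ZMYM2 with 0.306 ± 0.208, and neighbours in this order did not differ beyond their spread. In the knockdown the order of these levels per kb was ZMYM5 (1.44 ± 0.218), ZMYM1 (0.907 ± 0.0970), ZMYM2 (0.621 ± 0.0417) and ZMYM6 (0.471 ± 0.00103). Each step was larger than the SDs of its neighbours. Both orders depend on the annotated span. The most upstream frequent start of circles lay 96.1 kb into the 225276 bases of ZMYM2 and 90.2 kb into the 153350 bases of ZMYM4. Whether the orders hold with another span was not tested. ZMYM3, the X-linked member, had 7 counts in control replicate 1 and 0 in the other 3 libraries, too few to test.

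ZMYM1, ZMYM2 and ZMYM5 were each higher in both knockdown libraries than in both controls, and ZMYM4 and ZMYM6 overlapped. edgeR's quasi-likelihood test over 8379 host genes called 0.442% of them at the threshold, an adjusted p of 0.05, and 0 of the 5 tested members. At an unadjusted p under 0.05, ZMYM1 and ZMYM5 passed, against 7.58% of host genes in the same direction. Groups stood apart with the knockdown higher in 15.3% of host genes and lower in 36.7%. Over all host genes the median log2 fold change was -0.26 after trimmed-mean (TMM) scaling and -0.58 with library totals alone. Relative to the TMM median, ZMYM5 was 2.20 higher, ZMYM2 1.52, ZMYM1 1.31, ZMYM6 0.48 and ZMYM4 0.36. The calls turned on the controls: with control replicate 1 left out, ZMYM1, ZMYM2 and ZMYM5 passed (edgeR adjusted p = 0.00170, 0.00439 and 1.05e-08), in a fit that called 20.4% of all host genes. With control replicate 2 left out all 5 did, ZMYM4 at a log2 fold change of 0.72, in a fit that called 33.4%. In these fits the lone control is assumed to vary like the knockdown libraries.

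**Figure D1:**
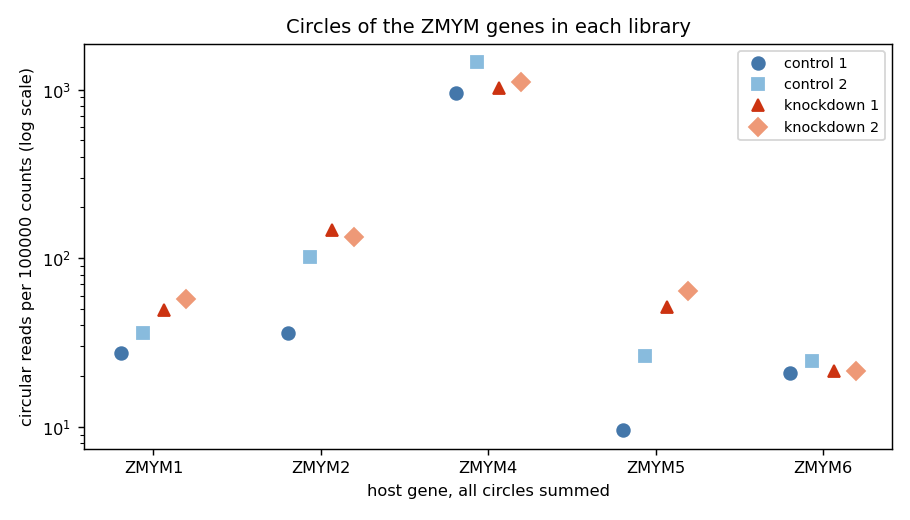
Circular reads of 5 ZMYM genes per 100000 counts on a log scale, all circles of a gene summed, with 1 marker per library (2 control, 2 knockdown). ZMYM1, ZMYM2 and ZMYM5 have both knockdown libraries above both controls, whereas for ZMYM4 and ZMYM6 the groups overlap; ZMYM3, with 7 counts in all, is not drawn.

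ZMYM5 lies on the minus strand of chromosome 13 (chr13:19823482-19863649, RefSeq GRCh38.p14) and is a close relative of ZMYM2, whose RefSeq span begins beside it on the plus strand (chr13:19863840-20089115). The sequences before the first start that the promoter table lists for each gene are shown because the pair shares parts of them, and because both genes were higher in the knockdown. They are 250 bases upstream of that start, 5′ to 3′ on the gene's strand, from RefSeq GRCh38.p14, at chr13:19958477-19958726 for ZMYM2 and chr13:19863650-19863899 for ZMYM5. For ZMYM2 this start is not the beginning of its span but lies within it, far downstream. Capitals mark runs of at least 12 bases found in both.
ZMYM2: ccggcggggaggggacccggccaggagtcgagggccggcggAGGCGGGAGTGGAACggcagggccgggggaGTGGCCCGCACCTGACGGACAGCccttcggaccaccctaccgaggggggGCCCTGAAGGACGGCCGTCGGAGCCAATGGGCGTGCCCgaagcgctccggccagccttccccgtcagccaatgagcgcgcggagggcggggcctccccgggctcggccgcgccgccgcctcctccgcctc
ZMYM5: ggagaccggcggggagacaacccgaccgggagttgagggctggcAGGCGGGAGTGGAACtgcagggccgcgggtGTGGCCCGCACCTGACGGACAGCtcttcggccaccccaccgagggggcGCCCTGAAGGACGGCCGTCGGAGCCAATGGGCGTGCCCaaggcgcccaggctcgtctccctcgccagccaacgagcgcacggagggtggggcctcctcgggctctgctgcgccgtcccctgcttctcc
The shared runs covered 76 bases, or 30.4% of each window. The table held 5 of the 6 members, without ZMYM6, and the other 9 pairs among them had 0 bases in such runs. The letters CCAAT, searched on both strands, matched 2 times before ZMYM2 and 1 time before ZMYM5, and 32.0% of 35116 windows of the same length held a match. Promoter activity was not measured, and whether the likeness of the genes moved reads between ZMYM2 and ZMYM5 was not tested.

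ZMYM5 circles had 45 and 147 counts in the controls and 146 and 250 in the knockdown. Per 100000 these were 9.53 and 26.4 against 51.6 and 64.0, so the lowest knockdown library was above the highest control. The ratio of the means was 3.22, and the log2 fold change was 1.94 ± 0.55 (SE; adjusted p = 0.199 in edgeR's quasi-likelihood test), or 1.31 with control replicate 1 and 3.17 with control replicate 2 left out. Of its 11 circles with at least 10 counts, 7 had the knockdown apart and higher, 2 lower and 2 overlapping. Over all 21576 circles tested the shares were 23.2% higher and 22.9% lower. The donor at 19824920 closed 57.8% and 65.3% of the gene's counts in the controls and 63.0% and 62.8% in the knockdown. The circle with the most counts there, of 7 exons (chr13:19824920-19862466), had 8, 63, 25 and 62 counts in control replicates 1 and 2 and knockdown replicates 1 and 2, and its groups overlapped. Shorter circles had larger ratios. The 6-exon circle (chr13:19824920-19851957) had 4 and 9 counts in the controls and 27 and 41 in the knockdown, a ratio of 8.14 in level with a log2 fold change of 2.96 ± 0.46 (SE; adjusted p = 0.0984, edgeR). The 4-exon circle (chr13:19824920-19838985) had 2 and 4 against 17 and 24 (log2 fold change 3.30 ± 0.54, adjusted p = 0.103, edgeR). A circle of a single 836 nt exon (chr13:19851355-19852190) had 1 and 8 against 22 and 30 (log2 fold change 3.14 ± 0.68, adjusted p = 0.147, edgeR). In all 3 shorter circles both knockdown libraries lay above both controls. In this order their log2 fold changes were 2.83, 3.24 and 2.61 without control replicate 1, and 3.36, 3.58 and 4.83 without control replicate 2. Without knockdown replicate 1 they were 3.23, 3.52 and 3.38, and without knockdown replicate 2 they were 2.89, 3.29 and 3.19. The 7-exon circle was at 0.38 without control replicate 1 and 2.72 without control replicate 2. It was at 1.55 without knockdown replicate 1 and 0.49 without knockdown replicate 2.

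ZMYM2 circles had 169 and 568 counts in the controls and 414 and 520 in the knockdown. Per 100000 these were 35.8 and 102 against 146 and 133, so the knockdown was higher, while the controls differed from each other more than the knockdown libraries did. The ratio of the means was 2.03 and the log2 fold change 1.26 ± 0.56 (SE; adjusted p = 0.377, edgeR), or 0.62 with control replicate 1 and 2.53 with control replicate 2 left out. Of its 22 circles with at least 10 counts, 12 stood apart and higher, 3 lower and 7 overlapped, beside 23.2% higher and 22.9% lower over all circles.

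The edges that ZMYM2 circles use differed between the groups along the gene. Circles that begin at the acceptor at 19959958, the most upstream of the frequent ones, made up 58.0% and 56.2% of its counts in the controls and 18.6% and 19.4% in the knockdown. Circles that begin at 20051433 made up 7.10% and 7.57% in the controls and 26.6% and 26.9% in the knockdown, and those at 20058575 made up 4.73% and 9.68% against 17.9% and 14.6%. For all 3 acceptors the groups did not overlap. In counts per 100000, acceptor 19959958 itself gave 20.7 and 57.3 in the controls and 27.2 and 25.9 in the knockdown, which overlapped. The 9-exon circle of 1161 nt (chr13:20051433-20067390) had 10 and 42 counts in the controls and 101 and 136 in the knockdown, a ratio of 7.30 in level (log2 fold change 2.86 ± 0.53, adjusted p = 0.118, edgeR). The 7-exon circle inside it (chr13:20058575-20067390), with the same donor, had 1.48 and 9.16 per 100000 in the controls against 22.3 and 15.9. A 4-exon circle (chr13:19993063-20006586) had 2.75 and 13.5 against 22.3 and 22.0. A 7-exon circle from the upstream acceptor (chr13:19959958-20019618) went the other way, with 38 and 74 counts in the controls and 9 and 15 in the knockdown. Its level was 0.329 of the control mean (log2 fold change -1.62 ± 0.41, adjusted p = 0.184, edgeR). Log2 fold changes of the 9-exon, inner 7-exon, 4-exon and upstream 7-exon circles were 2.43, 1.25, 0.93 and -1.68 without control replicate 1. Without control replicate 2 they were 3.87, 3.47, 2.82 and -1.34. Without knockdown replicate 1 they were 3.07, 1.83, 1.69 and -1.30. Without knockdown replicate 2 they were 2.89, 2.10, 1.49 and -1.76.

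Circles that share a donor differed in the same libraries. The 9-exon and the 21-exon ZMYM2 circles (chr13:19959958-20067390 for the longer) both close at 20067390, and the count of the shorter over that of the longer was 0.769 and 0.808 in the controls and 12.6 and 9.71 in the knockdown.

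ZMYM1 lies on the plus strand of chromosome 1 (chr1:35059786-35118818). Its circles had 130 and 200 counts in the controls and 140 and 225 in the knockdown, or 27.5 and 35.9 against 49.5 and 57.6 per 100000. The knockdown libraries were both above the controls (log2 fold change 1.05 ± 0.37, SE; adjusted p = 0.287, edgeR). Here too the shares of the start sites did not overlap. Acceptor 35093914 held 46.9% and 54.0% of the gene's counts in the controls and 30.0% and 21.8% in the knockdown. Acceptor 35104295 held 8.46% and 6.00% against 36.4% and 43.1%. In counts per 100000, acceptor 35093914 itself gave 12.9 and 19.4 in the controls and 14.9 and 12.5 in the knockdown, which overlapped. The 6-exon circle from acceptor 35104295 (chr1:35104295-35113181, 932 nt) had 8 and 7 counts in the controls and 32 and 66 in the knockdown. Its ratio in level was 9.56 (log2 fold change 3.18 ± 0.50, adjusted p = 0.0984, edgeR). It passed with control replicate 1 left out (adjusted p = 1.07e-12) and with control replicate 2 left out (adjusted p = 6.92e-07, edgeR). A circle of the same exon number that starts upstream (chr1:35093914-35110447) had 6.56 and 13.7 against 12.4 and 9.47 per 100000, and its groups overlapped (log2 fold change 0.09 ± 0.42). Another circle, called as intronic by the authors' caller (chr1:35088749-35113181), had 4.23 and 6.83 against 2.83 and 5.12 per 100000, also overlapping.

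**Figure D2:**
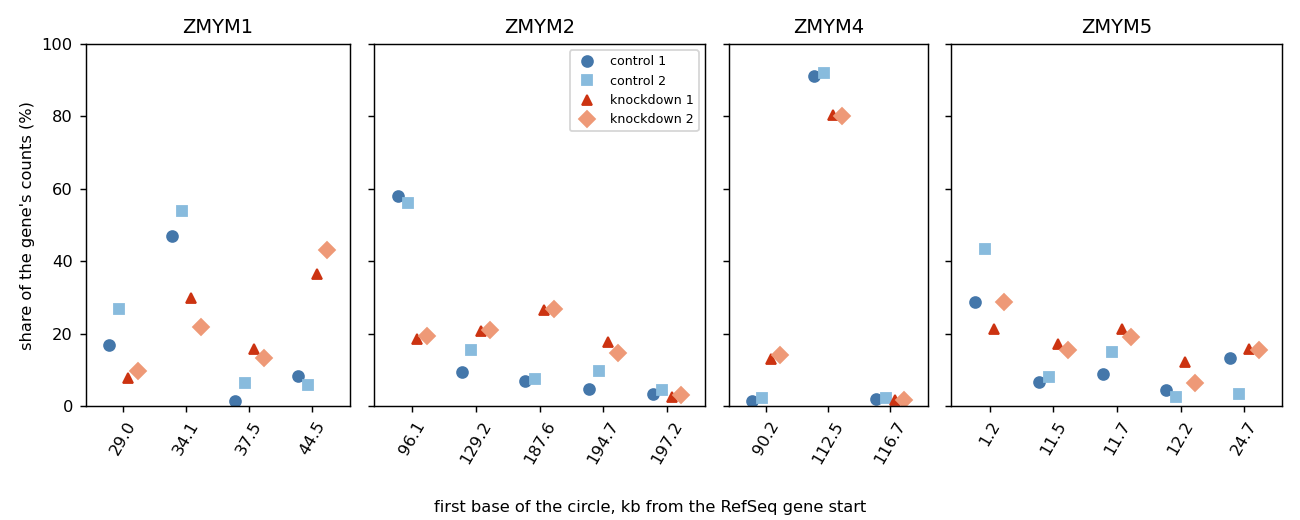
Share of each gene's counts by the first base of the circle (kb from the RefSeq gene start), for the most frequent start positions of ZMYM1, ZMYM2, ZMYM4 and ZMYM5, with 1 marker per library (2 control, 2 knockdown). In ZMYM2 the position 96.1 kb from the gene start is at 58.0% and 56.2% in the controls and 18.6% and 19.4% in the knockdown. Positions are counted along each gene's own strand.

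ZMYM4 (chr1:35268709-35422058, plus strand) carried most of the family's counts, 4525 and 8064 in the controls and 2869 and 4334 in the knockdown. Per 100000 its level was 958 and 1449 against 1015 and 1110, and the groups overlapped (ratio 0.883; log2 fold change 0.10 ± 0.55, SE; adjusted p = 0.951, edgeR). With library totals in place of TMM the fold change was -0.18, so no direction is given. A single circle of 7 exons and 1255 nt (chr1:35381259-35389082) was the second most counted of all circles in the series. It had 655 and 1018 counts per 100000 in the controls and 621 and 687 in the knockdown, again overlapping (log2 fold change -0.38 ± 0.27, adjusted p = 0.485, edgeR). The 8-exon circle with the same acceptor (chr1:35381259-35390098) had 167 and 234 against 131 and 141, apart and lower (log2 fold change -0.60 ± 0.28, adjusted p = 0.437, edgeR). It passed with control replicate 1 left out (adjusted p = 0.0351) and not with control replicate 2 left out (0.154). Its count per 100 counts of the 7-exon circle was 25.6 and 23.0 in the controls and 21.1 and 20.5 in the knockdown.

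A 3-exon circle upstream of these had its groups far apart. It spans chr1:35358925-35361789, and its first isoform is 755 nt long and joins exons of 522, 62 and 171 nt. A second isoform keeps the intron between the first 2 exons, as 1 block of 2331 nt. The circle had 1 and 38 counts in the controls and 284 and 513 in the knockdown. Per 100000 these were 0.212 and 6.83 against 100 and 131. The knockdown libraries thus lay above both controls, and the controls differed from each other. The ratio was 32.9 and the log2 fold change 5.06 ± 1.04 (SE; adjusted p = 0.135, edgeR), and the log2 fold change was 4.30 with control replicate 1 left out (adjusted p = 6.97e-41) and 8.74 with control replicate 2 left out (adjusted p = 3.41e-44). Its share of ZMYM4 counts was 0.0221% (95% exact interval 0.000560 to 0.123) and 0.471% (0.334 to 0.646) in the controls and 9.90% (8.83 to 11.1) and 11.8% (10.9 to 12.8) in the knockdown. These intervals cover counting error only, since amplified reads without molecular identifiers are not independent molecules. The 5-exon circle with the same acceptor (chr1:35358925-35370627) had 5.93 and 16.5 against 9.55 and 11.3 per 100000, and the count of the 3-exon over the 5-exon circle was 0.0357 and 0.413 in the controls and 10.5 and 11.7 in the knockdown. The donor of the 3-exon circle lies 19469 nt upstream of the acceptor of the 7-exon circle, so they share no exon. Without the 3-exon circle, ZMYM4 had 958 and 1442 against 914 and 978 counts per 100000.

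**Figure D3:**
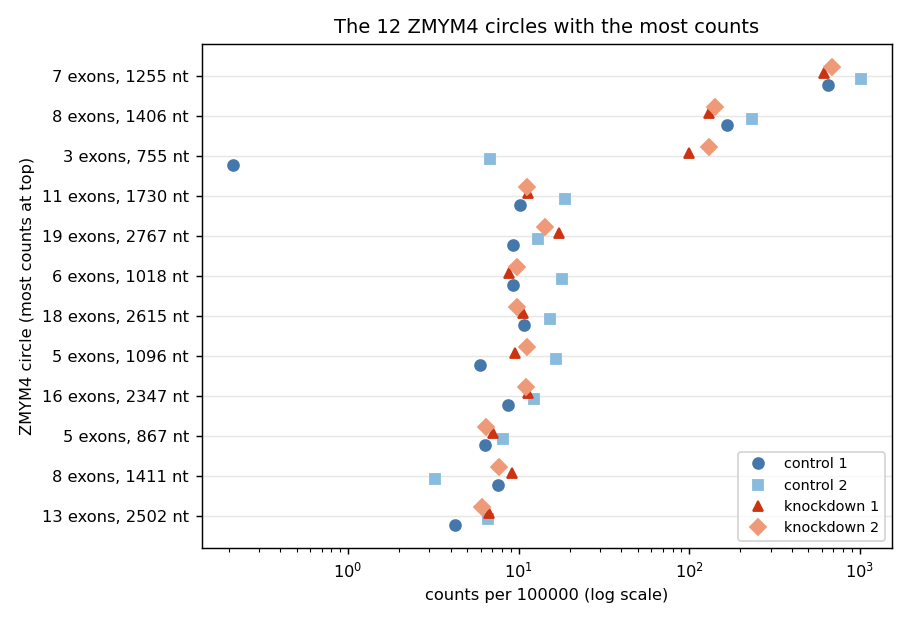
The 12 most counted ZMYM4 circles, named by exon number and length, with counts per 100000 on a log scale and 1 marker per library (2 control, 2 knockdown). The 3-exon circle has its controls at 0.212 and 6.83 and its knockdown libraries at 100 and 131, whereas the 7-exon and 8-exon circles differ by less than 2-fold between group means.

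The order of these circles in ZMYM4 and ZMYM2 can be compared in a plot of both genes by position. Of the 40 ZMYM4 circles with at least 10 counts, 11 were apart and higher, 9 lower and 20 overlapped. Over all circles tested 23.2% were higher and 22.9% lower. The median log2 fold change of the ZMYM4 circles was -0.13, against -0.41 over all circles tested. In ZMYM2 the median was 1.59.

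**Figure D4:**
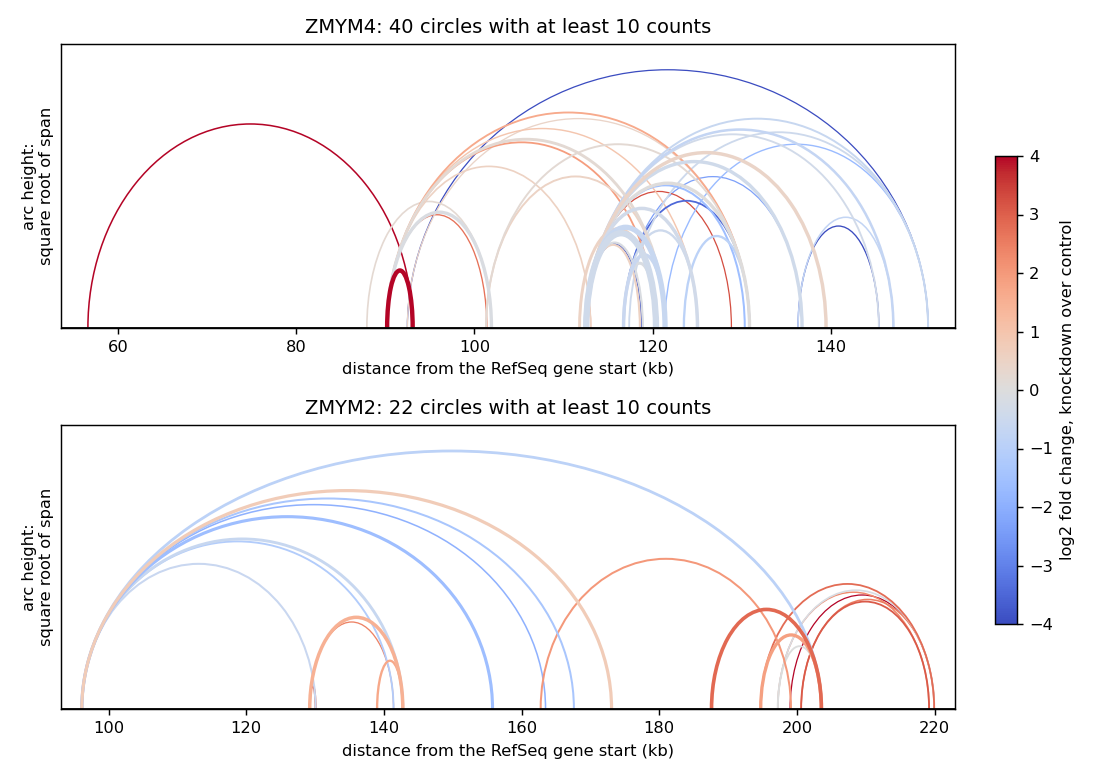
Circles of ZMYM4 (40) and ZMYM2 (22) with at least 10 counts as arcs from acceptor to donor, by distance from the RefSeq gene start in kb; arc height is the square root of the span, line width grows with the count, and colour gives the log2 fold change from -4 to 4. In ZMYM4 the thickest arcs, near 112.6 to 120.4 kb, are near neutral, and the 3-exon circle at 90.2 kb is red; in ZMYM2 the arcs with a log2 fold change above 1 begin at 129.2 kb or further downstream.

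ZMYM6 lies on the minus strand of chromosome 1 (chr1:34986165-35031945), and every position that names it also names a second, Ensembl-numbered gene. Its circles were at 20.96 and 24.4 per 100000 in the controls and 21.6 and 21.5 in the knockdown, and the groups overlapped. The log2 fold change was 0.22 ± 0.34 (SE; adjusted p = 0.800, edgeR), and -0.076 with library totals. The 10-exon circle (chr1:35003968-35015162) had 3.39 and 3.05 counts per 100000 in the controls against 5.31 and 4.35, apart and higher (log2 fold change 0.51 ± 0.47, adjusted p = 0.595, edgeR). The 11-exon circle with the same acceptor (chr1:34992234-35015162) had 2.54 and 3.23 against 3.54 and 3.07, overlapping. An intronic circle (chr1:35012664-35014570) had 2 and 14 counts in the controls and 0 in both knockdown libraries. With a floor of 3 counts per library the knockdown was at least 1.61-fold below the control mean. Control replicate 1, with 2 counts, was itself below that floor, so the bound rests on control replicate 2. Its adjusted p was 0.375, and 0.00242 with control replicate 1 left out (edgeR). Another of the 3 lower circles with the smallest p was a ZMYM4 circle (chr1:35385442-35399576) with 6 and 14 counts in the controls and 0 and 1 in the knockdown (adjusted p = 0.321, and 0.0134 with control replicate 1 left out, edgeR).

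Whether circles of 1 gene changed unequally was asked with edgeR's test of differential use, which compares each circle with the rest of its gene, over 2335 genes with at least 2 tested circles that name 1 gene. It called 3.94% of them, and of the 4 members it could test it called 3: ZMYM4 (30 circles, adjusted p = 3.66e-05), ZMYM2 (22 circles, adjusted p = 0.00175) and ZMYM1 (10 circles, adjusted p = 0.0154). ZMYM5 did not pass (11 circles, adjusted p = 0.0970), but did with the replicate block (adjusted p = 0.00198). With the circles' p-values combined by the Simes method, ZMYM2 (adjusted p = 0.0641) and ZMYM1 (0.195) were lost. Among single circles, use differed for the 3-exon ZMYM4 circle, higher in the knockdown (adjusted p = 1.42e-09), and for the 7-exon ZMYM2 circle from 19959958, lower (adjusted p = 0.0174). All 3 gene calls were lost without knockdown replicate 1 (adjusted p = 0.972) and without knockdown replicate 2 (adjusted p = 0.954), settings in which only 1 and 2 genes in the whole table passed.

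Over the family, 36 of the 93 circles with at least 10 counts had the knockdown apart and higher, 18 lower, and 39 overlapped, beside 23.2% higher and 22.9% lower over all circles. At an unadjusted p under 0.05, 20 were higher and 2 lower, beside 9.29% and 4.26%. At an adjusted p of 0.05 edgeR called 0 of these 93 and 0 of 21576 circles in all, or 0% (2925 at an unadjusted p under 0.05). With control replicate 1 left out it called 33 of the family's circles (23 higher, 10 lower), beside 22.6% of all circles. With control replicate 2 left out it called 27 (25 higher, 2 lower), beside 29.9% of all circles. The family's circles had a median of 7 exons and 1344 nt (range 243 to 3971 nt), against 6 exons and 1244 nt over all tested circles, and 5.38% were intronic against 12.8%. The splice motif was AG-GT in 91, AG-GC in 1 ZMYM2 circle and other in 1 ZMYM5 circle.

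By exon number, a grouping chosen after the values were seen and without a test, exon circles of 1 to 5 exons had a median log2 fold change of 2.43 (27 circles, 18 apart and higher, 2 lower), against -0.30 over all exon circles of that size. Circles of 6 to 9 exons had a median of -0.26 (28 circles, 9 higher, 7 lower), against -0.21 over all exon circles of that size. Those of 10 or more exons had 0.04 (33 circles, 8 higher, 8 lower), against -0.23. Over all exon circles of 1 to 5 exons, 1852 of 7035 were apart and higher and 1659 lower. For 6 to 9 exons these were 1398 and 1417 of 5624, and for 10 or more exons 1192 and 1233 of 5131.

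**Figure D5:**
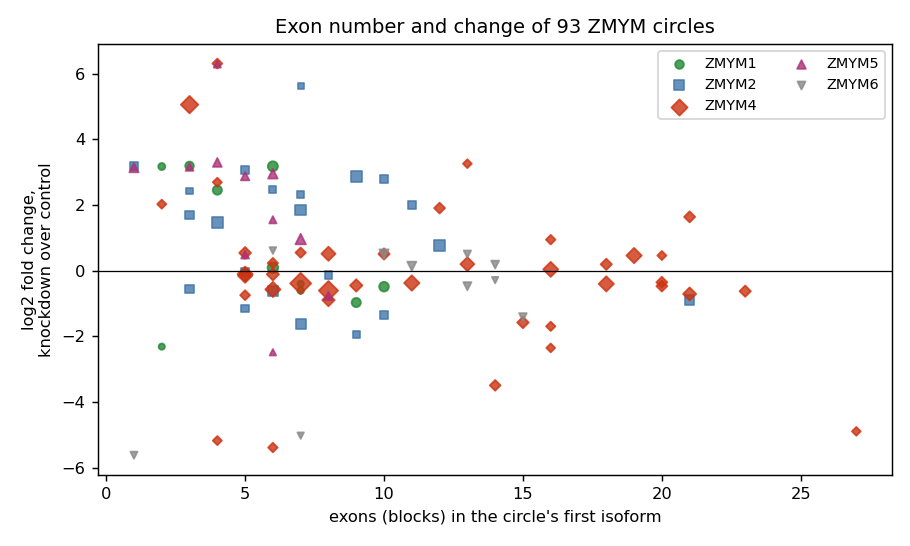
Log2 fold change, knockdown over control, against the number of exons in each of the 93 ZMYM circles with at least 10 counts, with marker shape and colour by gene and marker size by count. The 27 exon circles of 1 to 5 exons have a median of 2.43, and the 3-exon ZMYM4 circle is at 5.06.

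Host genes linked to these proteins were taken as a list of 25 LSD1-CoREST complex and SUMO-linked partner genes. Of these, 21 had counts and 19 were tested, and 0 passed the threshold, beside 0.442% of all host genes. At an unadjusted p under 0.05 in edgeR's test, 1 was higher and 2 lower. Over all 8379 host genes, 1154 were under 0.05 in either direction, 635 of them higher. Their median log2 fold change was -0.50, beside -0.26 over all host genes. BRCA1, a DNA repair ligase subunit, had 27.7 and 35.6 counts per 100000 in the controls and 60.1 and 45.8 in the knockdown (log2 fold change 1.03 ± 0.37, adjusted p = 0.295, edgeR). PIAS2, a SUMO ligase, had 47.6 and 48.9 against 14.5 and 19.7 (-1.18 ± 0.36, adjusted p = 0.218, edgeR). GTF2I, a general transcription factor, had 33.4 and 32.7 against 16.6 and 13.6 (-0.83 ± 0.33, adjusted p = 0.331, edgeR).

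The genes whose levels over the 4 libraries were most like those of ZMYM4, out of 2876 compared by distance on the log2 scale after centring, were HACE1 (0.0315), ADGRV1 (0.0479) and EDEM3 (0.0545). Those most like ZMYM2 were TOGARAM1 (0.0645), PHF3 (0.121) and HMGB1P19 (0.145).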

How the data were processed

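The authors deposited 1 table of raw counts, whole numbers per back-splice position and library, and circle lengths and exon structures beside them, per the file headers. CIRI-long, a circle caller for long reads, is named in every row. The genome build GRCh38.p14 is named in the submitters' processing notes; the base caller, aligner and filters were not given in the sources used here. A second, scaled table was not used. RNA was copied with a reverse transcriptase that runs around circles and was amplified with phi29, per the labels' protocols, so counted reads are not independent molecules.

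Counts were summed per host gene over every position naming it. Host genes and positions with at least 10 counts over the 4 libraries were tested with edgeR 4.0.16 (R 4.3.3; glmQLFit, glmQLFTest, TMM on library totals, Benjamini-Hochberg over all features), and circle use with diffSpliceDGE. DESeq2 1.42.0, other filters, scalings and left-out libraries were alternatives. The fitting was tested on simulated data. All 6 members were named, with the 3 most counted circles of each (at least 40 counts), the 3 with the smallest p in each direction, and 2 genes of each list per direction. One gene that this rule names is not reported here. The ZMYM4 5-exon and ZMYM2 21-exon circles and the start-site and exon-number groupings were added after their values were seen. Members and lists were chosen with earlier results of these data known. The series design calls the 2 libraries per group biological replicates. The sample titles number the replicates and name no pairing between the groups. Same-numbered deviations had a correlation of 0.0806 over 4944 circles, which with 2 libraries a group cannot settle whether they were paired.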

Additional observations from a re-analysis of the deposited data

Results flagged for a closer look

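Antisense positions were left out of the family. The 13 antisense positions that name ZMYM2 nevertheless held counts in every library, with a knockdown mean of 1.96 per 100000 beside 1.03 in the controls. The values were 1.69 and 0.359 per 100000 in the controls and 2.12 and 1.79 in the knockdown, from 8, 2, 6 and 7 counts, so the difference was not tested and rests on few reads.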

How the results depend on the processing

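With 2 libraries a group, the calls moved with the setting, for a cause that was not tested. At host gene level 37 passed as reported, 184 with DESeq2, 369 without a count filter, 108 with at least 40 counts, 116 when 2 libraries had to reach 5 counts, 0 under the other dispersion method (1253 at an unadjusted p under 0.05) and 88 from positions naming 1 gene, and 0 to 2794 with 1 library left out (1672 without control replicate 1, 2794 without control replicate 2). Circles numbered 0, and 1085 with DESeq2, 471 without a filter, 562 with at least 40 counts, 1422 when 2 libraries had to reach 5, 302 with exon circles only, and 0 to 6266 with 1 library left out (4499 without control replicate 1). Of the family's circles 0 passed, and 13, 4, 6, 14 and 5 did under the same 5 settings, with 0 to 33 when 1 library was left out (33 without control replicate 1, 27 without control replicate 2). Of its host genes 0 passed, and 1 with DESeq2, 1 without a filter, and 0 to 5 with 1 library left out (3 without control replicate 1, 5 without control replicate 2); ZMYM5 passed with DESeq2 (adjusted p = 0.0234). Genes with unequal circle use numbered 92, and 53 by the Simes method, under which ZMYM2 (adjusted p = 0.0641) and ZMYM1 (0.195) were lost, and 1 to 1061 with 1 library left out, an alternative chosen after seeing the data (951 without control replicate 1, 1 without knockdown replicate 1, 2 without knockdown replicate 2). The 3-exon ZMYM4 circle passed with DESeq2 (adjusted p = 0.0174), over a range of 3.41e-44 to 0.695 across its alternatives.

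The sample titles tie same-numbered libraries by number alone, and whether they were paired is not known. With the replicate block 300 host genes, 1620 circles, 15 family circles, 1 family host gene (ZMYM5) and 536 genes of unequal use passed.

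The fold change turned for ZMYM4 (-0.18 with library totals, and -0.28 to 0.72 with 1 library left out), ZMYM6 (-0.076, and -0.016 to 0.61), the ZMYM1 circle at 35093914-35110447 (-0.080 without a filter, and -0.13 to 0.54) and the ZMYM1 circle at 35088749-35113181 (-0.99 to 0.052). The lower end fell without control replicate 1 in the first 3, and the upper end without knockdown replicate 1 in the last. The family's ratio ranged from 0.815 to 1.27.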

Other observations

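Genes that neighbour the members on their chromosomes were a list of 23, of which 14 had circle counts and 13 were tested. None passed the threshold in edgeR's quasi-likelihood test, beside 0.442% of all host genes. In the same test 0 had an unadjusted p under 0.05, beside 1154 of 8379 host genes. A fold change above 0 was seen in 8 and below 0 in 5. Their median log2 fold change was 0.05, beside -0.26 over all host genes. MPHOSPH8, a silencing factor near ZMYM5 and ZMYM2, had 2.75 and 3.41 counts per 100000 in the controls and 3.89 and 4.35 in the knockdown (log2 fold change 0.71 ± 0.57, adjusted p = 0.599, edgeR). TAF1, near ZMYM3 on the X chromosome and a subunit of the general transcription factor TFIID, had 26.7 and 21.4 against 20.2 and 26.4, overlapping. KIAA0319L had 9.10 and 1.44 against 2.48 and 1.28, and NONO, a paraspeckle protein, had 4.23 and 0.359 against 1.41 and 0.256, so the groups of both overlapped.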
